A study of Mus musculus with 6 samples.

Results

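The values below describe the 10 tubulin isotype genes that the series measured in the cut sciatic nerve of female and male mice: the α-tubulin genes Tuba1a, Tuba1b and Tuba4a and the β-tubulin genes Tubb2a, Tubb2b, Tubb3, Tubb4a, Tubb4b, Tubb5 and Tubb6. They were taken by symbol from 54309 genes listed, and each gene's value is the sum over its transcripts. The tissue was the left sciatic nerve proximal to a complete cut (axotomy), that is, the stump still joined to the dorsal root ganglia, taken 24 h after surgery. All libraries came from C57BL/6 mice of 6 to 8 weeks with no allele or drug named, and sex was the only labelled difference between the groups. There were 3 female and 3 male libraries, each made from the pooled nerves of 2 mice. No library of an uninjured or sham nerve was used here, so whether any difference below is a response to injury was not tested. Pools from separate mice were the replicates, and p-values measure the spread between pools.

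Microtubules are hollow polymers of α-tubulin and β-tubulin dimers. They give axons their shape and carry the motors that bring cargo to and from the nerve ending. Mammals make each subunit from several genes, the isotypes, whose proteins differ most in the acidic tail at the carboxyl end, where modifying enzymes and associated proteins bind. Tuba1a and Tubb2b are best known from developing neurons, Tubb3 is widely used as a neuronal marker, and Tubb4a is known from neurons and from oligodendrocytes, the myelinating cells of the central nervous system. Tuba1b, Tubb4b and Tubb5 are made in most cells. Schwann cells, the glia of peripheral nerve, are the main cells of a nerve trunk, where the cell bodies of the sensory and motor neurons are absent. In bulk tissue, fewer cells of a type and less RNA per cell cannot be told apart.

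Cells tune tubulin mRNA to the pool of free subunits through the first residues of the nascent protein, which are read at the ribosome by the factor Ttc5. The first 12 coding bases that encode them are shown for 5 genes because they separate the families, with the fourth codon in capitals. They were read from GRCm39, and those of the α-tubulin genes are joined across an intron that follows the first 3 bases.
Tuba1a: atgcgtgagTGC
Tuba4a: atgcgcgagTGC
Tubb2a: atgcgcgagATC
Tubb2b: atgcgagagATC
Tubb4a: atgcgggaaATC
The fourth codon was TGC in 3 of 3 α-tubulin members and ATC in the 6 β-tubulin members read. Tuba1b had the same 12 bases as Tuba1a, and Tubb3 the same as Tubb4b.

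The other end of the coding sequence shows how far the close copies can be told apart by their reads. The last 60 coding bases before the stop codon encode the acidic tail, and capitals mark bases that did not match in the other gene of the pair. They are shown for 2 pairs of β-tubulin genes, and all 4 stretches lie on the minus strand of GRCm39: Tubb2a at chr13:34258454-34258513, Tubb2b at chr13:34311457-34311516, Tubb4a at chr17:57387693-57387752 and Tubb4b at chr2:25112323-25112382.
Tubb2a: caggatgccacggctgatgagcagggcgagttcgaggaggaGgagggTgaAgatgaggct
Tubb2b: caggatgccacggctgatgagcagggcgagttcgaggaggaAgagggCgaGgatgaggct
Tubb4a: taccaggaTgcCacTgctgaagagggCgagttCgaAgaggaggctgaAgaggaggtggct
Tubb4b: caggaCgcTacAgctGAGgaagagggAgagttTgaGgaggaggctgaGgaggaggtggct
Tubb2a and Tubb2b differed at 3 bases here, whereas 7 bases of Tubb4a and 10 of Tubb4b had no match in the other gene.

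Over the whole coding sequence the identity was 98.3% between Tuba1a and Tuba1b and 96.5% between Tubb2a and Tubb2b, and every other pair within a family had 80.2% to 85.7%. Of the coding stretches of 100 bases, the read length used, 80.4% in Tuba1a and 90.9% in Tuba1b also occurred in another gene listed. The share was 45.0% in Tubb2a, 46.7% in Tubb2b and 35.3% in Tubb4b, the last through 3 pseudogenes. It was 0 in Tuba4a, Tubb3, Tubb4a, Tubb5 and Tubb6, so no stretch of their coding sequence of that length was found in another listed gene. Of the 1257 stretches of Tuba1a, 594 occurred in Tuba1c, 547 in Gm17383 and 448 in Tuba1b. Counts of Tuba1a and Tuba1b, and of Tubb2a and Tubb2b, are therefore uncertain in how they were split. The count of Tubb4a does not depend on such a split in its coding sequence. Untranslated parts and the mates of read pairs, which can also tell copies apart, were not examined.

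The genes were spread over 7 chromosomes, and on each transcript read here the coding sequence covered 4 exons. Tuba1a (chr15:98847714-98851589) and Tuba1b (chr15:98827738-98832493) lie 15220 bases apart on the minus strand, and Tubb2a (chr13:34257549-34261998) and Tubb2b (chr13:34307245-34315143) lie 45246 bases apart on the minus strand. Tubb4a (chr17:57387057-57394782, minus) and Tubb5 (chr17:36144809-36149198, minus) share chromosome 17, Tuba4a is at chr1:75189219-75196566 (minus), Tubb3 at chr8:124138163-124150092 (plus) and Tubb4b at chr2:25112170-25114714 (minus). Tubb6 is on chromosome 18. Opposite-strand genes overlap part of 9 of the 10, among them Stk16 at Tuba4a, Bphl at Tubb2a and Flot1 at Tubb5, and a long noncoding RNA spans Tubb4a. The libraries were stranded, but the strand setting used for counting was not given in the sources used here.

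Levels were first set side by side in TPM, the transcript abundance that is corrected for length and scaled to a fixed total per library, which allows genes to be compared with each other. The α-tubulin genes Tuba1a and Tuba1b were the most abundant, at 1115 ± 151 and 1101 ± 75.3 TPM (SD, n = 6 libraries), followed by the β-tubulin genes Tubb5 (411 ± 24.4) and Tubb2a (361 ± 52.4). Tubb2b (199 ± 38.9), Tubb4b (177 ± 8.39) and Tubb6 (111 ± 18.9) formed the middle, and Tubb3 (28.0 ± 6.30), Tubb4a (21.5 ± 8.08) and Tuba4a (13.6 ± 4.24) were lowest. Neighbours in this order overlapped over the libraries between Tuba1a and Tuba1b, Tubb5 and Tubb2a, Tubb2b and Tubb4b, Tubb3 and Tubb4a, and Tubb4a and Tuba4a. The steps from Tuba1b to Tubb5, Tubb2a to Tubb2b, Tubb4b to Tubb6 and Tubb6 to Tubb3 were present in 6 of 6 libraries with no overlap. Tubb3, the neuronal isotype, thus held 0.793% of the mean TPM of the 10 genes, and Tuba1a and Tuba1b 31.5% and 31.1%.

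**Figure D1:**
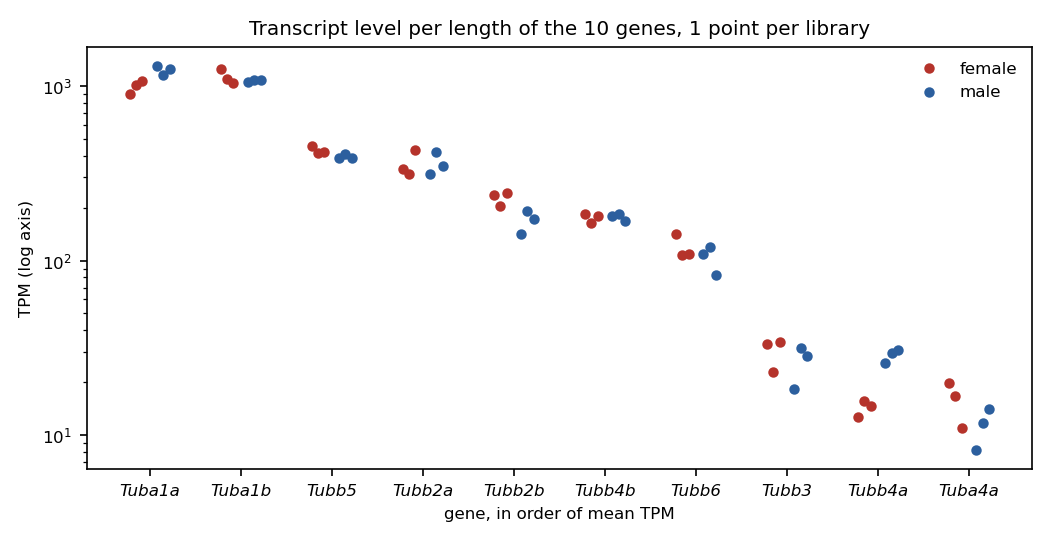
TPM on a log axis for the 10 tubulin genes in order of their mean, with 1 point per library (3 female, 3 male). The highest genes, Tuba1a and Tuba1b, average 1115 and 1101 TPM and the lowest, Tuba4a, 13.6, and Tubb4a is the gene whose female and male points stand furthest apart.

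Sex was then compared gene by gene on CPM, the counts scaled by normalised library size, with edgeR's quasi-likelihood test and Benjamini-Hochberg adjustment over the 18424 genes that passed the filter on low counts. All 10 members passed that filter. At the threshold used, an adjusted p under 0.1, 1 of 10 members was higher in males and 0 of 10 were higher in females, where 3.81% and 1.46% of all genes tested were called in those directions. An unadjusted p under 0.05 was reached by 1 member in each direction, and by 3811 of the 18424 genes tested. DESeq2's Wald test and limma-voom also called 1 member higher in males and 0 higher in females. The median log2 fold change (male minus female) was -0.12 over the members and -0.03 over all genes tested, with 2 members above 0 and 8 below.

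Tubb4a was the member called. It had 22.5, 26.1 and 27.2 CPM in females 1, 2 and 3 and 44.2, 46.8 and 49.9 CPM in males 1, 2 and 3. The lowest male library was thus above the highest female library, and the spread within each sex was small beside the gap (25.3 ± 2.43 CPM in females and 46.9 ± 2.83 in males, SD, n = 3). The log2 fold change was 0.89 ± 0.11 (SE), or 1.86-fold, with an adjusted p of 0.0331 in edgeR. Tubb4a was also the one member whose CPM did not overlap between the sexes, a pattern that 13.9% of all genes tested showed toward males and 11.5% toward females. Without female 1 the log2 fold change was 0.82 (edgeR, unadjusted p = 1.83e-04, adjusted p = 0.147). Without male 3 it was 0.85 (edgeR, unadjusted p = 2.95e-04, adjusted p = 0.123). The call thus rested on those libraries, as calls did over all genes, which fell from 971 to 1 and 7. The range of adjusted p over all 17 alternatives was 2.98e-08 to 0.147.

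**Figure D2:**
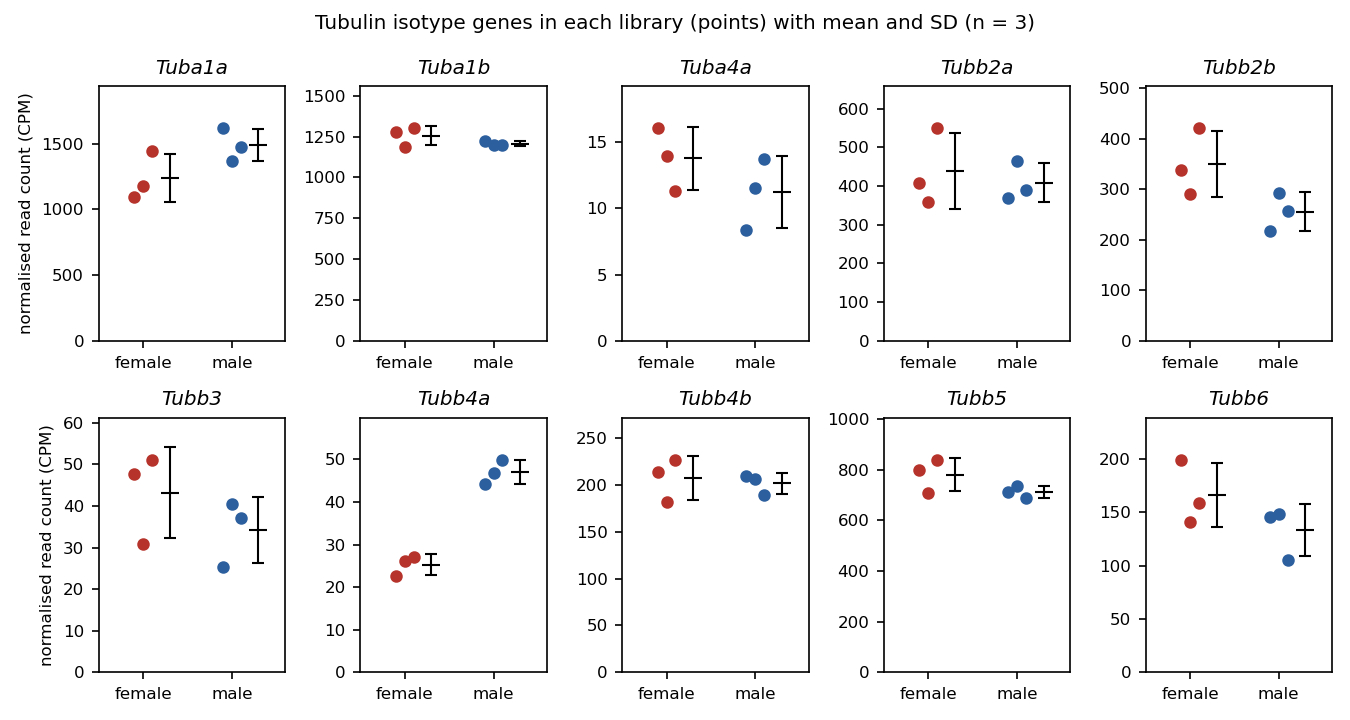
CPM of the 10 tubulin genes in each library (points, red female and blue male) with the mean and SD of 3 libraries beside them, each panel from 0. Tubb4a is the one panel in which the points of the sexes do not overlap, at 22.5 to 27.2 CPM in females and 44.2 to 49.9 CPM in males.

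The α-tubulin genes did not pass the test between the sexes. Tuba1a, the isotype known from developing neurons, had 1096, 1175 and 1441 CPM in females and 1615, 1371 and 1475 CPM in males, a log2 fold change of 0.27 ± 0.17 (adjusted p = 0.398, edgeR). Tuba1b, made in most cells, had 1280, 1188 and 1300 CPM in females and 1223, 1201 and 1196 CPM in males, with a difference of -0.06 ± 0.13 (adjusted p = 0.836). Tuba1b was the steadiest member, with an SD of log2 CPM over the 6 libraries of 0.0547. Tuba4a, an α-tubulin known for lacking the encoded final tyrosine of its relatives, had 16.0, 14.0 and 11.3 CPM in females and 8.34, 11.5 and 13.7 CPM in males (-0.30 ± 0.21, adjusted p = 0.462). Female 3 and male 1 were the lowest libraries of their sex for Tuba4a, and the ranges of the sexes overlapped.

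Among the neuron-associated β-tubulin genes, Tubb2a had 408, 358 and 548 CPM in females and 369, 466 and 390 CPM in males (-0.10 ± 0.18, adjusted p = 0.789). Tubb2b had 338, 291 and 420 CPM in females and 217, 293 and 257 CPM in males (-0.45 ± 0.17, unadjusted p = 0.0321, adjusted p = 0.199). It was the member with the second smallest p, and male 2 lay within the female range. Tubb3 had 47.8, 30.9 and 51.1 CPM in females and 25.3, 40.4 and 37.1 CPM in males (-0.34 ± 0.23, adjusted p = 0.444). The libraries of one sex differed in Tubb3 by more than the means of the sexes did.

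The β-tubulin genes of wider use did not pass the test either. Tubb4b had 214, 181 and 226 CPM in females and 210, 206 and 189 CPM in males (-0.04 ± 0.12, adjusted p = 0.875), the smallest difference of the 10. Tubb5 had 797, 708 and 838 CPM in females and 712, 738 and 687 CPM in males (-0.13 ± 0.13, adjusted p = 0.597). Tubb6 had 199, 141 and 158 CPM in females and 146, 149 and 106 CPM in males (-0.32 ± 0.18, adjusted p = 0.354). Female 1 and male 3 were the extremes for Tubb6, and the other 4 libraries lay between 141 and 158 CPM. A p above the threshold does not show that the sexes were equal for these genes. In TPM, unlike CPM, the sexes also did not overlap for Tuba1a (900 to 1075 in females and 1153 to 1304 in males), Tubb2b (206 to 244 and 141 to 193) and Tubb5 (415 to 453 and 387 to 407). With Tubb4a, 2 members were thus apart toward males and 2 toward females in TPM, a pattern that 13.4% and 7.64% of all genes tested showed in those directions.

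**Figure D3:**
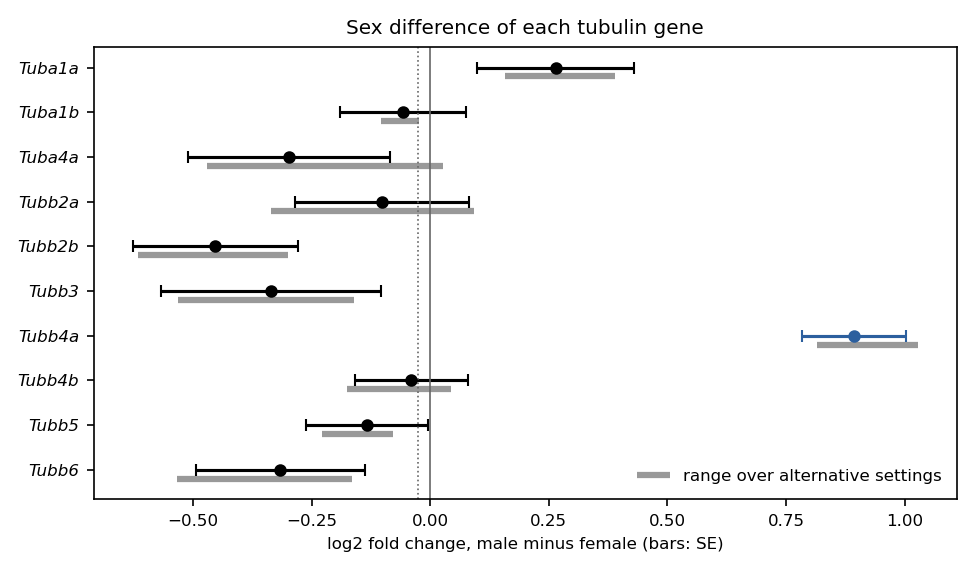
Log2 fold change of each tubulin gene, male minus female, as points with the SE, and as grey bars the lowest and highest value over the alternative settings. The dotted line marks the median of all genes tested (-0.03), and Tubb4a (blue, 0.89) is the one gene called.

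The make-up of the tubulin pool was described as the share of each gene in the summed TPM of the α-tubulin or β-tubulin members. The 10 genes together came to 3496 ± 110 TPM in females and 3581 ± 45.6 TPM in males (SD, n = 3, exact two-sided permutation test, p = 0.4). With 3 libraries against 3 this test cannot give a p below 0.1. Tubb4a made up 0.902%, 1.26% and 1.02% of β-tubulin TPM in females and 2.19%, 2.12% and 2.53% in males. Tubb2b made up 16.9%, 16.5% and 17.1% in females and 12.0%, 13.9% and 14.2% in males, and Tubb4b 13.0% ± 0.377 in females and 14.2% ± 1.07 in males. In these 3 shares the sexes did not overlap, and each exact p was 0.1, the smallest possible, with an adjusted value of 0.2 over the 10 shares. For Tubb4b the sexes overlapped when counts over fixed lengths were used in place of TPM (exact p = 0.2), and without male 1 the difference of its share was 0.594 percentage points instead of 1.19.

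Tuba1a and Tuba1b made up nearly the whole α-tubulin pool, so their shares are close to complements of each other. Tuba1a held 41.5%, 47.6% and 50.6% of α-tubulin TPM in females and 55.1%, 51.3% and 53.1% in males, and Tuba1b 57.6%, 51.6% and 48.9% in females and 44.6%, 48.1% and 46.3% in males, again without overlap (exact permutation p = 0.1, adjusted 0.2). Without female 1 the difference, male minus female, was 4.06 percentage points instead of 6.60 for Tuba1a and -3.90 instead of -6.35 for Tuba1b. The shares of Tuba4a, Tubb2a, Tubb3, Tubb5 and Tubb6 overlapped between the sexes, with exact p from 0.3 to 0.8. Tubb5 and Tubb2a were the largest β-tubulin shares, at 31.5% and 27.5% over the 6 libraries.

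**Figure D4:**
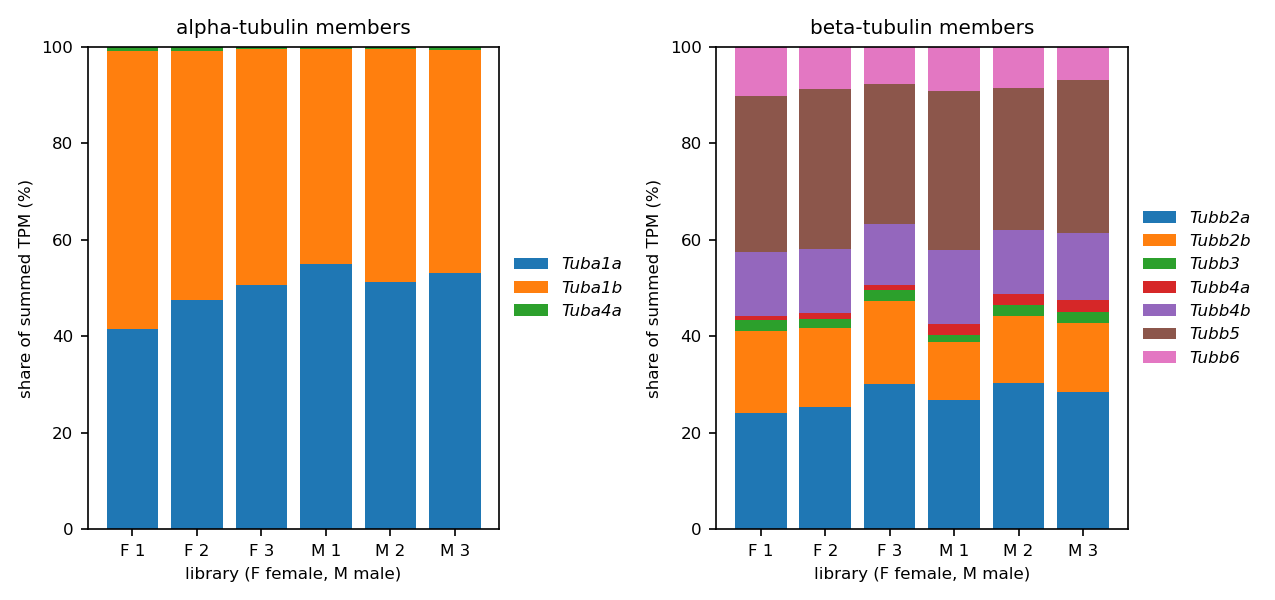
Share of each gene in the summed TPM of the 3 α-tubulin members (left) and of the 7 β-tubulin members (right), 1 bar per library, F female and M male. The share of Tuba1a is 41.5% to 50.6% in females and 51.3% to 55.1% in males, and that of Tubb4a at most 1.26% in females and at least 2.12% in males.

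Ratios of TPM were taken for 4 pairs of genes. The ratio of Tubb2a to Tubb2b was 1.42, 1.53 and 1.76 in females and 2.22, 2.18 and 2.01 in males, and that of Tuba1a to Tuba1b 0.721, 0.923 and 1.04 in females and 1.23, 1.07 and 1.15 in males. The ratio of Tubb4b to Tubb4a was 14.6, 10.5 and 12.3 in females and 7.03, 6.30 and 5.47 in males, and that of Tubb3 to Tubb4a 2.62, 1.46 and 2.34 in females and 0.707, 1.08 and 0.920 in males. None of the 4 ratios overlapped between the sexes (exact permutation p = 0.1 each, the smallest possible, not adjusted). Each ratio contains a gene whose share of TPM was already found not to overlap: Tubb2b, Tuba1a and Tuba1b, or Tubb4a. The ratios are thus no separate support for a difference between the sexes. Tubb2a and Tubb2b, like Tuba1a and Tuba1b, are close copies, whose counts are uncertain in their split. When each pair was summed before the test, Tubb2a with Tubb2b gave a log2 fold change of -0.25 ± 0.19 (adjusted p = 0.486) and Tuba1a with Tuba1b and Tuba1c gave 0.08 ± 0.16 (adjusted p = 0.811).

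A readthrough gene, Gm49450, overlaps both Tuba1a and Tuba1b on the same strand and shares coding sequence with them. Its estimated counts were 5346, 1727 and 0 in females 1, 2 and 3 and 0, 10.3 and 102 in males 1, 2 and 3, so it drew counts mainly in 2 female libraries. With its TPM added to Tuba1a, a choice made after the data were seen, the share of Tuba1a was 46.2%, 49.1% and 50.6% in females and 55.1%, 51.4% and 53.2% in males, still without overlap. The summed TPM of the 3 α-tubulin members was 2138 ± 26.1 in females and 2321 ± 66.2 in males without overlap as deposited (exact p = 0.1), but with Gm49450 added female 1, at 2358 TPM, lay within the male range of 2246 to 2368 (exact p = 0.3). Its part in the difference of Tuba1a counts was not tested beyond this addition, under which the log2 fold change was 0.21 ± 0.15 (adjusted p = 0.467).

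Single transcripts carried nearly all counts of 9 members. The main protein-coding transcript held at least 96.4% of the counts in every library for Tuba1a, Tuba1b, Tubb2a, Tubb2b, Tubb3, Tubb4a, Tubb4b, Tubb5 and Tubb6. Tuba4a was split over 7 of its 8 listed transcripts, and a retained-intron form, Tuba4a-205, held 13.9% to 44.6% of its TPM. The retained-intron form Tuba1b-202 stood at 182 TPM in female 1 and at 2.66 to 13.8 TPM in the other 5 libraries, so the TPM of Tuba1b in female 1 (1248) was high through that form. On protein-coding transcripts alone, chosen after the data were seen, Tuba1b ranged from 1035 to 1082 TPM over the 6 libraries, and the shares that did not overlap between the sexes were those of the same 5 genes. Female 1 had the largest share of all TPM in retained-intron transcripts, 4.84%, against 3.46% to 4.63% in the others. The part of retained introns in the shares was not tested further.

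Some members had profiles close to each other over the 6 libraries. Tuba1b, Tubb4b and Tubb5, the genes of wide use, were closest: their log2 CPM, each centred on its mean over the 6 libraries, differed by a root mean square of 0.0573 to 0.0696. They also varied least of the 10 members (SD of log2 CPM 0.0547, 0.118 and 0.111), so their closeness does not show that they moved together. Tubb2a, Tubb2b and Tubb3 shared an order: each was lowest in female 2 and male 1 and highest in female 3 and male 2. The summed CPM of 10 genes of the repair Schwann cell, the state that Schwann cells take after injury, had the same extremes (586, 541 and 869 in females and 475, 663 and 520 in males), and 0 of these 10 genes passed the test between the sexes in edgeR, with 1 at an unadjusted p under 0.05, 1 called by DESeq2 and 0 by limma-voom. Tubb4a stood apart from all 9 others, its nearest member being Tuba1a at 0.337. Of the 10 members, 7 were lowest in female 2 among the females and 8 were highest in female 3. These orders were not counted over all genes. Among the cell type lists given below, the sums of the oligodendrocyte, astrocyte, myelinating Schwann cell and neutrophil lists were also highest in female 3. Those of the macrophage, adipocyte and endothelial lists were highest in female 1.

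For the 3 members that varied most, the protein-coding genes with the most similar profile were sought among 10062 genes of 10 CPM or more, by the same root mean square difference. Those nearest to Tubb4a were Gpt, an alanine aminotransferase (0.0423), Syp, the synaptic vesicle protein synaptophysin (0.0609), and Bcas1, a gene known from myelinating oligodendrocytes and Schwann cells (0.0612). Gpt had 6.23, 6.91 and 7.44 CPM in females and 12.3, 12.7 and 14.6 CPM in males. All 3 were called higher in males in edgeR, with adjusted p from 0.0347 to 0.0396. Because they were picked for likeness to a called gene, these calls are no separate support. Nearest to Tubb3 were Odc1, ornithine decarboxylase (0.114), Gpc1, the proteoglycan glypican-1 (0.121), and Nrg1, the axonal signal neuregulin-1 (0.122). Odc1 had 542, 406 and 551 CPM in females and 328, 439 and 447 CPM in males, with the low values in female 2 and male 1 that Tubb3 has. Nearest to Tuba4a were P2ry12, a purine receptor of platelets and microglia (0.112), Mef2c, a transcription factor (0.126), and Prune2 (0.130). With 6 libraries these likenesses are descriptions. None of the 6 genes nearest to Tubb3 and Tuba4a was called (adjusted p 0.22 to 0.653), which is likewise no separate support.

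**Figure D5:**
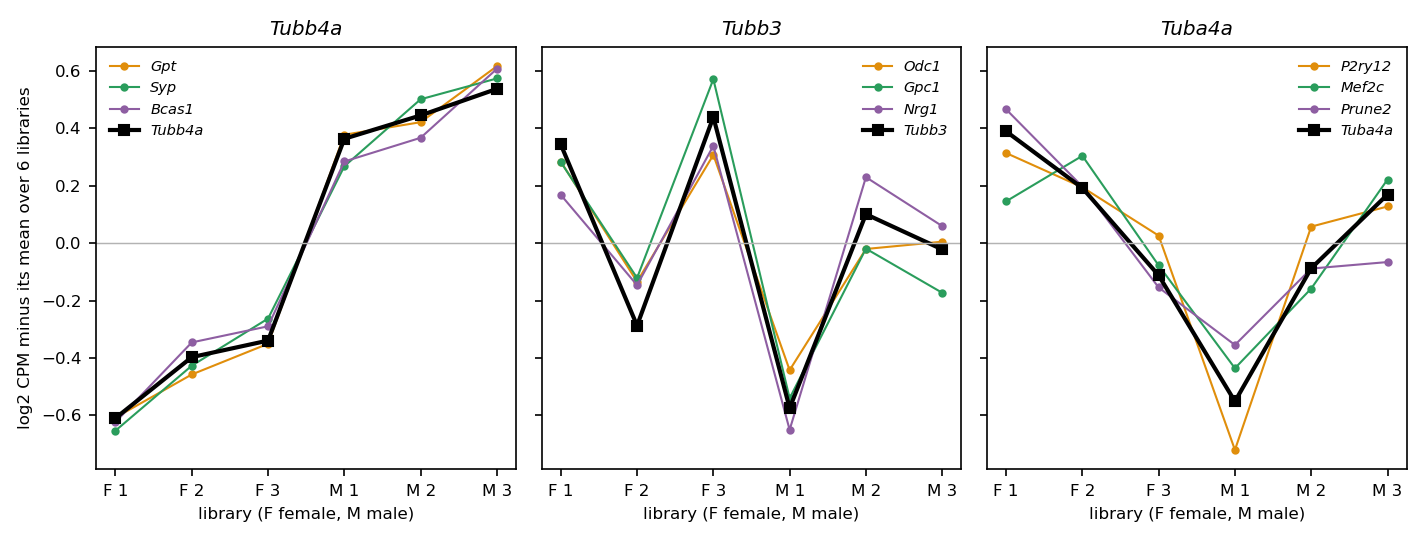
Log2 CPM minus its mean over the 6 libraries (F female, M male) for Tubb4a, Tubb3 and Tuba4a (black) and for the 3 genes nearest to each (colours). Tubb4a and its neighbours Gpt, Syp and Bcas1 are below 0 in the 3 female and above 0 in the 3 male libraries, whereas Tubb3 and Tuba4a are both lowest in male 1.

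Genes of several cell type marker lists were called higher in males, as Tubb4a was. The myelinating Schwann cell list, 8 of whose 12 genes were called higher in males and 0 in females, summed to 24380 to 33090 CPM in females and 55970 to 65690 CPM in males, among them Ncmap, Fa2h and Pllp at 2.17-fold, 1.93-fold and 2.26-fold higher in males. Per 1000 CPM of that list, Tubb4a was 0.821 to 0.923 CPM in females and 0.730 to 0.835 CPM in males, which overlapped. Of the sensory neuron list 3 of 11 genes were called higher in males: Nefl, Nefh and Nefm, which encode the subunits of the axonal neurofilament, at 2.61-fold, 2.00-fold and 2.37-fold. Of the 11 genes 8 had a log2 fold change above 0 and 3 below 0. The list summed to 38.5 to 61.4 CPM in females and 74.2 to 102 CPM in males (its genes Scn11a and Sprr1a had no count in male 1), and Tubb4a per 1000 CPM of it overlapped as well, at 442 to 678 in females and 486 to 595 in males. These ratios were chosen after the values were seen.

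Several markers of central nervous tissue were at or near 0 in females and above it in males. The oligodendrocyte list had 5 of 10 genes called higher in males and summed to 1474 to 2029 CPM in females and 2347 to 2804 in males, sums that include Sox10, Mag and Cnp, which Schwann cells also make. Its members Olig2 and Ermn had no count in 3 of 3 female libraries and Mog none in 2, whereas Ermn had 18, 109 and 88 estimated counts in males. The astrocyte list had 5 of 11 called, with the water channel gene Aqp4 averaging 0.0407 CPM in females against 3.40 CPM in males, and summed to 392 to 454 CPM in females and 623 to 746 in males. Most of the male sum came from S100b, which averaged 213 CPM in females and 460 CPM in males. S100b was thus not near 0 in females, and the sums of this list and ratios to it rest largely on that gene. Of the 11 genes of the list 7 had a log2 fold change above 0 and 4 below 0. The central neuron list had 9 of 12 called and summed to 7.75 to 12.4 CPM in females and 23.6 to 50.9 in males. Tubb4a was 13.4 to 15.3 CPM per 1000 CPM of the oligodendrocyte list in females and 15.8 to 19.9 in males, and 57.5 to 59.8 CPM per 1000 CPM of the astrocyte list in females and 66.0 to 75.1 in males. Per 1000 CPM of the central neuron list it was 2194 to 2904 CPM in females and 980 to 1876 CPM in males. Relative to the first 2 lists Tubb4a was thus higher in males and relative to the third lower, each without overlap. Tubb4a and the central neuron list had the same extremes, lowest in female 1 and male 1 and highest in female 3 and male 3. Male 1, with the lowest central neuron sum of the males, had 44.2 CPM of Tubb4a against 46.8 and 49.9 in the others. The part of these lists in the difference of Tubb4a was not tested.

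Genes of the other lists were mostly higher in females or were mixed in direction. The skeletal muscle list had 4 of 13 genes called higher in females, but its sums were 48.7 to 669 CPM in females and 9.73 to 756 CPM in males and were largest in male 3 and female 2. DESeq2 called 4 of them and limma-voom 0. The cell-cycle list had 5 of 18 called higher in females, Kif11, Ccnb1, Bub1 and Kif23 among them at 2.06-fold to 2.50-fold, with sums of 280 to 391 CPM in females and 217 to 285 CPM in males. DESeq2 called 10 of them and limma-voom 2. In edgeR 0 genes were called in the adipocyte, macrophage, neutrophil, endothelial and fibroblast lists, with 2, 3, 1, 1 and 3 genes at an unadjusted p under 0.05. DESeq2 called 1, 3, 1, 0 and 2 genes of these lists and limma-voom none of them. The fibroblast genes called were higher in males and the others higher in females. All tested genes of the adipocyte (10), macrophage (10) and neutrophil (8) lists were lower in males, with medians of -1.35, -0.48 and -0.55. The endothelial list had 4 genes above 0 and 4 below, and the fibroblast list 5 and 3. The smallest p of each of these lists belonged to Lep, Mrc1, Mmp9, Pecam1 and Pdgfra, with adjusted p from 0.103 to 0.199.

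The other tubulin genes gave no call. Of 15 further genes with an α, β, γ, δ or ε-tubulin symbol, 7 passed the filter and 8 did not, the latter with at most 7 counts over the 6 libraries: 3 coding genes and 5 pseudogenes or noncoding genes. Tuba1c, the closest relative of Tuba1a and Tuba1b, had 194, 124 and 144 CPM in females and 116, 125 and 84.9 CPM in males (-0.50 ± 0.20, adjusted p = 0.216, edgeR). Tubg1, the γ-tubulin that nucleates microtubules, had 24.5 ± 2.93 CPM in females and 19.8 ± 1.38 in males (-0.31 ± 0.13, adjusted p = 0.225). These 2 were the genes of the list at an unadjusted p under 0.05, and DESeq2 and limma-voom also called 0 of 7. Tuba8, Tubb1, Tubd1, Tube1 and Tubg2 had adjusted p from 0.466 to 0.851, and Tubb1, the isotype of platelets and megakaryocytes, was at 1.54 ± 0.810 CPM in females and 0.960 ± 0.874 in males. The 5 genes of the γ-tubulin complex, Tubgcp2 to Tubgcp6, all lay below 0, from -0.28 to -0.21, and 0 of 5 were called by edgeR, DESeq2 or limma-voom, with 1 at an unadjusted p under 0.05 in edgeR.

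Genes that fold tubulin or tune its mRNA, such as the chaperonin subunits, the tubulin cofactors and Ttc5, had 0 of 22 called in edgeR, a median log2 fold change of -0.02 and 5 genes at an unadjusted p under 0.05, all lower in males. Over all genes tested, 3811 of 18424 reached that unadjusted p in edgeR. DESeq2 called 1 of them and limma-voom 0. The smallest p was that of Tbcd, a cofactor that helps β-tubulin into the dimer, at 66.0 ± 6.17 CPM in females and 52.9 ± 2.88 in males (-0.32 ± 0.10, adjusted p = 0.144). Enzymes that modify tubulin had 0 of 21 called in edgeR, with a median of 0.04 and 4 genes at an unadjusted p under 0.05. DESeq2 called 3 of them higher in males and limma-voom 2. Atat1, which acetylates α-tubulin inside the microtubule, came nearest, at 15.0, 16.6 and 13.5 CPM in females and 19.9, 21.6 and 20.4 CPM in males (0.46 ± 0.12, adjusted p = 0.101), just outside the threshold and without overlap.

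Proteins that bind microtubules included the called genes of the pathway. Of 20 microtubule-associated protein genes, 2 were called higher in males and 0 in females, with a median of 0.24. They were Map2, the dendritic stabiliser, at 4.59, 5.21 and 3.64 CPM in females and 6.77, 12.5 and 14.3 CPM in males (2.49-fold, adjusted p = 0.0705), and Map6d1, a relative of the cold-stable microtubule protein Map6, at 0.513 ± 0.0440 and 1.14 ± 0.250 CPM (2.21-fold, adjusted p = 0.0902). In males, Map2 was lowest in male 1, as the central neuron list was. DESeq2 called 5 genes of the list higher in males and 1 higher in females, and limma-voom 0.

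Of 12 genes of the stathmins, which sequester free tubulin dimers, and of the severing enzymes, 2 were called higher in males and 0 in females. Stmn1 had 124, 188 and 156 CPM in females and 371, 328 and 448 CPM in males (2.44-fold, 1.29 ± 0.19, adjusted p = 0.0347), a larger difference than that of Tubb4a at a higher level. Stmn4 had 0.289 ± 0.0580 CPM in females and 1.35 ± 0.475 in males (4.60-fold, adjusted p = 0.0438).

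Of 14 genes on a list drawn up for microtubule plus ends, 3 were called higher in males and 2 in females, with a median of -0.13. Where their proteins sit was not measured here. Mapre3, a tip-tracking protein known from neurons, had 52.6, 59.7 and 56.2 CPM in females and 83.5, 83.4 and 89.6 CPM in males (1.52-fold, adjusted p = 0.0347), and Clip3, a linker protein of the same family as Clip2, the third called, differed by 1.65-fold (adjusted p = 0.0375). Apc, which links plus ends to the cell cortex, had 246, 233 and 249 CPM in females and 161, 160 and 160 CPM in males (1.51-fold higher in females, adjusted p = 0.0376), and Nav2, a neuron navigator protein, was 1.66-fold higher in females (adjusted p = 0.0625).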

How the data were processed

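RNA-seq was made from poly-A RNA of 6 libraries, 3 per sex, with a stranded TruSeq kit and paired reads. The submitters' notes name Trimmomatic 0.39, Salmon 1.5.2 and MultiQC 1.9. The authors deposited, per transcript of a GENCODE release on GRCm39, Salmon's estimated count, which is not normalised and splits reads among close copies. Beside it the authors gave the TPM, scaled for effective length and to a fixed total. Each library held 49158283 to 69848769 estimated counts.

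Counts were summed per symbol's gene, rounded, and tested in edgeR 4.0.16 (R 4.3.3, filterByExpr, TMM, quasi-likelihood, sex as the only term, Benjamini-Hochberg adjustment, threshold 0.1 on the adjusted p as in the study's methods). The SE is the log2 fold change divided by the square root of F. Of 54309 genes 18424 were tested, 702 were called higher in males and 269 in females. Shares of TPM were compared by exact permutation tests over libraries (scipy 1.17.1). Libraries were grouped by the labelled sex, and no library was a copy of another (chi-square per degree of freedom 48.6 to 147). Alternatives used DESeq2 1.42.0, limma 3.58.1 and the settings named in the closing section. Coordinates and coding bases came from the GENCODE M39 annotation of GRCm39.

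The members and lists were chosen with earlier results of these data known. The text names the 10 members, every other tubulin-symbol gene tested and the 3 nearest genes of the 3 most variable members. From each list it draws on up to 4 called genes by smallest p (or the 1 with the smallest p). Not all of these are named, and none of the central neuron, skeletal muscle and repair Schwann cell lists is. Olig2, Sox10, Mag, Cnp, Scn11a, Sprr1a, Clip2, Gm49450 and the overlapping genes stand outside this rule and were chosen after their values were seen.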

Additional observations from a re-analysis of the deposited data

How the results depend on the processing

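Tubb4a kept its call in 15 of 17 settings, with a log2 fold change of 0.82 to 1.03, and lost it without female 1 and without male 3. The count of members higher in males was 0 to 1 when each library was left out in turn. It was 0 with close copies summed, where Tubb4a enters 1 unit with the more abundant Tubb4b (0.10 ± 0.11, adjusted p = 0.67), so the unit follows Tubb4b. The count higher in females was 0 in every setting run. The other 9 members were not called in any setting (smallest adjusted p 0.112), and 6 values turned sign, none of them called: Tuba4a with a muscle score in the model (0.0261), Tubb2a (0.0099) and Tubb4b (0.0435) with an offset for transcript length, Tubb2a without female 3 (0.0925, in a range from -0.231 over the libraries left out) and Tubb4b without female 3 (0.0296) and without male 3 (0.0057, in a range from -0.13). The cause was not tested.

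Over all genes, 971 calls became 2436 with DESeq2's Wald test, 1617 without a filter, 457 with the muscle score, 284 at an adjusted p under 0.05, and 1 to 2612 when a library was left out, with the lowest count without female 1 and 7 without male 3. Same-numbered female and male libraries did not deviate together (correlations of -0.04, -0.30 and -0.29). Deviations from the mean of 3 libraries are tied to each other, so these values cannot exclude a pairing by number. With the replicate block 56 genes were called (48 higher in males), Tubb4a among them (adjusted p = 0.098).

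The log2 ratio of the summed TPM of the 10 genes was 0.03 and became 0.0011 (exact p = 1) with Gm49450 added to Tuba1a. Over the 110 settings run for the shares, 103 kept the sign of the difference. The 7 that did not belonged to Tubb3, Tubb5 and Tubb6, whose shares overlapped between the sexes. With protein-coding transcripts alone and Gm49450 added, the share difference of Tuba1a was 3.18 percentage points instead of 6.60 and that of Tuba1b -3.08 instead of -6.35. These additions were chosen after the data were seen. Rescaling counts within the 10 genes gave no value for their sum, which it holds constant. With 3 pools per sex a share cannot reach p under 0.1, and the split between close copies limits Tuba1a, Tuba1b, Tubb2a and Tubb2b.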
